A study of Mus musculus with 20 samples.

Results

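Neurospheres grown from the subventricular zone (SVZ) were compared with first-round neurospheres grown from the hippocampus. The comparison takes 12 of the 20 RNA-seq libraries of the series, 6 from SVZ spheres and 6 from first-round hippocampal spheres. Of the 36724 genes in the table of all genes, 35241 lie on autosomes, and 13354 of those reached at least 1 RPKM (reads per kilobase of gene, scaled to the mapped reads of the library) in 3 or more of the 12 libraries. These 13354 genes are the ones described. The spheres came from adult C57BL/6 mice aged 8 to 12 weeks, and cells were grown untreated in medium with EGF and FGF. The SVZ spheres were taken in their first round at day 3, with 3 Egfl7 knockout and 3 wild-type libraries, all from male mice. The first-round hippocampal spheres were taken at day 5, with 3 knockout libraries from males and 3 wild-type libraries from females. Brain region and culture day therefore change together and cannot be told apart, and in the hippocampal spheres genotype and donor sex cannot be told apart either. Among the wild-type libraries, region and donor sex change together as well. A second round of hippocampal spheres, also day 5 and all male, had 4 knockout and 4 wild-type libraries. It is quoted for the level of some genes and enters only 1 alternative fit, which shares its error estimate over all 20 libraries. The labels call the libraries biological replicates and number the mice 4 to 6 for the SVZ and 1 to 3 for the first-round hippocampus, so the regions came from differently numbered mice. Egfl7, the gene deleted in the knockout, encodes a secreted factor made mainly by endothelial cells that binds Notch receptors.

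The SVZ lines the lateral ventricles and is the larger neurogenic region of the adult mouse brain. Its stem cells send neuroblasts to the olfactory bulb, where most become inhibitory interneurons, and it also yields oligodendrocytes. The hippocampal region with stem cells, the subgranular zone of the dentate gyrus, makes excitatory granule neurons. Both kinds of stem cell resemble astrocytes, are mostly quiescent in the tissue, and divide when plated with EGF and FGF, forming floating spheres that mix stem cells, progenitors and more differentiated cells. A bulk library averages over all cells of the spheres, so fewer cells of a type and less RNA per cell cannot be told apart. Differences are given as SVZ minus hippocampus on the log2(RPKM + 1) scale, which understates the change of genes with low values.

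The sampling depth was close in the 2 groups. The RPKM steps that 1 read makes in short genes correspond to 12 to 13.9 M mapped reads in the SVZ libraries and 11.7 to 12.9 M in the hippocampal ones. For a transcript of 2000 bases, 3 reads then equal 0.108 to 0.129 RPKM, and values under that are at the limit of detection. Between 19109 and 19586 genes had a value in the SVZ libraries and between 19589 and 20158 in the hippocampal ones. Egfl7 checks the labels only in part. It was 0.094, 2.86 and 0 RPKM in the 3 SVZ knockout libraries and 1.73, 2.99 and 0 RPKM in the 3 SVZ wild-type ones. SVZ knockout replicate 2 and SVZ wild-type replicate 3 thus go against their genotype labels, while the hippocampal libraries followed theirs, with 0 RPKM in every knockout and 1.34, 1.07 and 0.566 RPKM in wild-type ones. Which part of Egfl7 was deleted is not stated in the labels. These SVZ libraries bear on the genotype term, not on the region label, and counts without them are given for the total and for the lists they move.

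The first principal component held 51.5% of the variance and separated the regions. The SVZ libraries lay from −44.3 to −17.3 on it and the hippocampal libraries from 15.9 to 50.8, with no overlap. The second held 9.51% and set 1 library apart, hippocampal wild-type replicate 1, at 37.1 against −19.97 to −4.95 for the other 5 hippocampal libraries. Pearson correlations over genes, which are not independent replicates, were 0.971 to 0.987 between SVZ libraries, 0.960 to 0.981 between hippocampal libraries and 0.897 to 0.972 across regions.

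**Figure D1:**
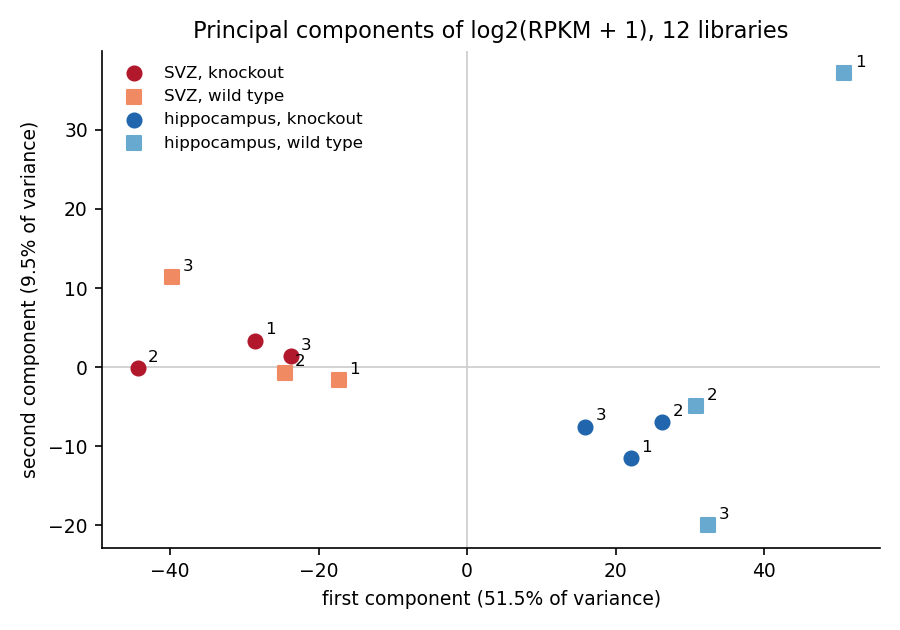
Each point is 1 of the 12 libraries, placed by its first and second principal component of log2(RPKM + 1) over the 13354 genes. The SVZ libraries all lie below −17 and the hippocampal ones all above 15 on the first axis, and hippocampal wild-type replicate 1 lies apart at 37.1 on the second.

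Differences between the regions were widespread. With limma and Benjamini-Hochberg adjustment over all genes, 6500 of 13354 genes passed an adjusted p of 0.05 (48.7%), of which 3156 were higher in SVZ spheres (23.6%) and 3344 in hippocampal spheres (25%). In 3569 genes (26.7%) the 6 libraries of one region did not overlap the 6 of the other. Most differences were small: 349 called genes were at least 1 higher in SVZ spheres on the log2 scale and 404 at least 1 higher in hippocampal spheres, and at a difference of 2 or more these counts were 28 and 33. The median difference over all genes was −0.02. Within knockout libraries alone, all of them male, 3341 genes passed (25%), and within wild-type libraries alone 3464 passed (25.9%). The wild-type fit sets male SVZ against female hippocampal donors, so here and below region and donor sex cannot be told apart in it. Without the 2 SVZ libraries that go against their genotype label, 5161 passed. The counts for gene lists below are to be read against these shares.

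Of the SVZ-high differences, that of Six3os1 was the largest by the naming rule and that of its neighbour Six3 on chromosome 17 the third. Six3 (chr17:85620834-85626191, plus strand, GRCm38) encodes a homeobox transcription factor of the anterior neural plate, eye and ventral forebrain. Its RPKM was 14.9, 16.9 and 10.4 in SVZ knockout and 11.3, 13.0 and 15.4 in SVZ wild-type libraries, against 9.76, 0.171 and 0 in hippocampal knockout and 0.702, 0.395 and 1.08 in hippocampal wild-type libraries. Every SVZ library was above every hippocampal one, which the naming rule requires, but hippocampal knockout replicate 1 lay just under the lowest SVZ library. The difference was 2.86 ± 0.48 (SE; adjusted p = 0.000529). Six3os1, the long non-coding RNA that starts beside Six3 on the other strand (chr17:85601932-85618396), was 60.9, 55.7 and 66.4 RPKM in SVZ knockout and 73.5, 65.3 and 61.1 in SVZ wild-type libraries. In the hippocampal knockouts Six3os1 was 46.7, 3.01 and 0.138 RPKM and in the wild types 1.79, 2.84 and 5.89. The same library, hippocampal knockout replicate 1, was again the high one. The Six3os1 difference was 3.68 ± 0.68 (adjusted p = 0.000971). Within the knockout libraries alone neither gene passed, with an adjusted p of 0.0798 for Six3 and 0.104 for Six3os1 in limma. Without hippocampal knockout replicate 1 the differences were 3.37 and 4.38. In the second hippocampal round Six3 was 0 to 2.01 RPKM and Six3os1 0 to 40.9.

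Among the other SVZ-high genes at the top were 8 whose level varied widely among the SVZ libraries. Col18a1, a basement membrane collagen whose C-terminal fragment is endostatin, was 22.6, 61.0 and 5.43 RPKM in the SVZ knockouts and 2.90, 3.66 and 22.9 in the SVZ wild types, and 0.295 to 0.660 in all 6 hippocampal libraries. Its difference was 3.12 ± 0.57, and 2.70 without SVZ knockout replicate 2. Lgals1, the galactoside-binding lectin galectin-1, ranged from 543 to 2440 RPKM (median 1362) in SVZ and from 68.8 to 370 (median 191) in hippocampal spheres. The osteopontin gene Spp1 was 9.51 to 38.4 RPKM in SVZ and 0.684 to 4.34 in hippocampal spheres. Rgs16, a brake on G protein signalling (2.71), the vascular ligand gene Angpt2 (2.47), the receptor-type phosphatase gene Ptprn (2.51), the sialyltransferase gene St6galnac2 (2.49) and the retinoic acid synthesis gene Aldh1a3 (2.38) completed the group. In each of Col18a1, Lgals1, Spp1, Rgs16, Angpt2, Ptprn, St6galnac2 and Aldh1a3, SVZ knockout replicate 2 was the highest of the 12 libraries. The naming rule admits only genes without overlap of the regions, so the lack of overlap in these 8 genes is no finding. Aldh1a3 did not pass within the wild-type libraries alone (1.65, adjusted p = 0.0621 in limma). All 8 stayed above 1.6 on the log2 scale without the 2 SVZ libraries that go against their label, where Aldh1a3 was 1.65 and Col18a1 2.32.

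Igf2bp2 and Barhl2 were the remaining SVZ-high genes at the top. SVZ knockout replicate 2 was again the highest library for both, as it was for Six3. Igf2bp2 encodes an RNA-binding protein best known from fetal and growing tissues. It was 25.0, 27.7 and 19.7 RPKM in SVZ knockout, 11.8, 14.2 and 14.9 in SVZ wild-type, 1.72, 4.96 and 1.34 in hippocampal knockout and 4.35, 1.03 and 0.782 in hippocampal wild-type libraries. The Igf2bp2 difference was 2.66 ± 0.28 (adjusted p = 3.7e-05), and the second hippocampal round held 0 to 0.808 RPKM. Barhl2, a homeobox gene of the diencephalon, hindbrain and spinal cord, was 7.93, 10.7 and 5.18 RPKM in SVZ knockout and 2.96, 4.01 and 7.36 in SVZ wild-type libraries. In the hippocampal libraries Barhl2 was 0 to 0.880, the highest value being hippocampal wild-type replicate 1. Its difference was 2.49 ± 0.25 (adjusted p = 3.2e-05), and all 8 second-round hippocampal libraries were at or under 0.061 RPKM.

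**Figure D2:**
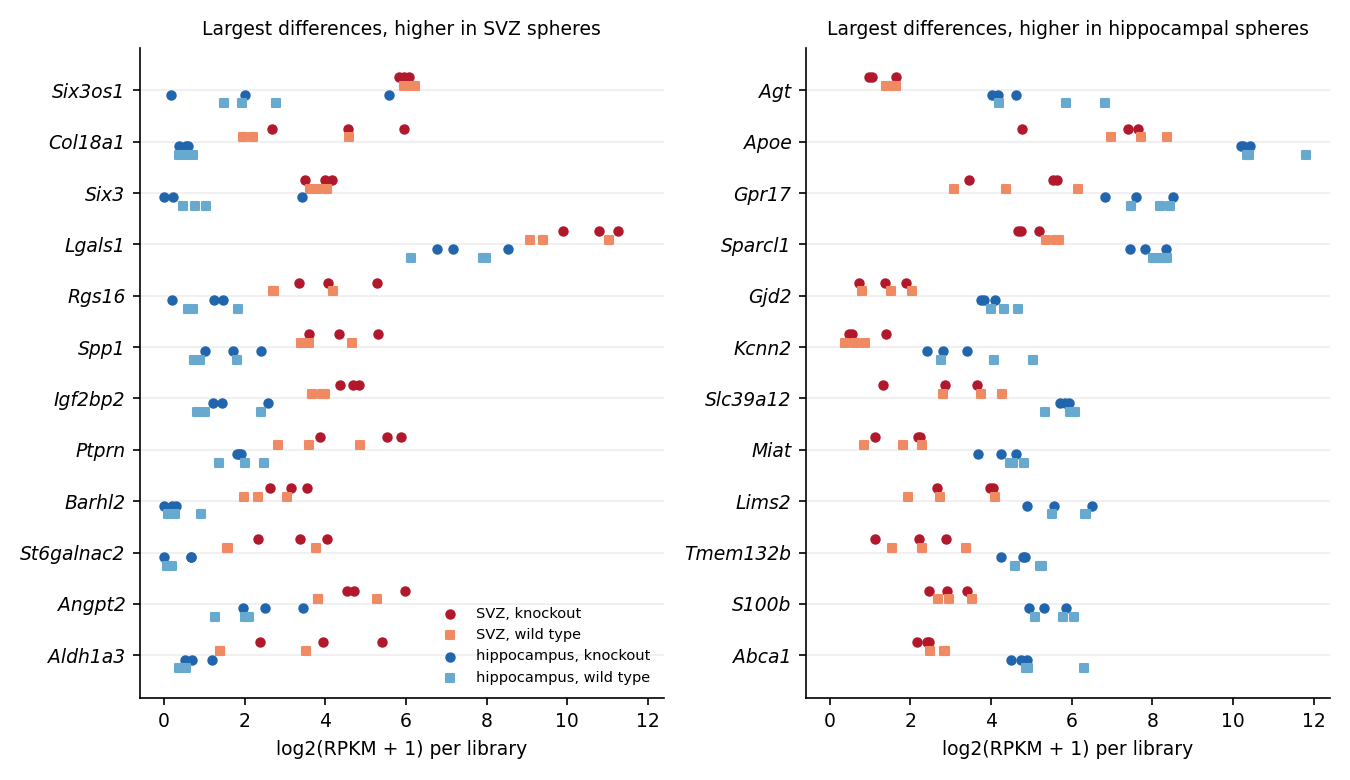
Each point is 1 library's log2(RPKM + 1) for the 12 genes per direction with the largest differences among those whose regions do not overlap. Hippocampal knockout replicate 1 lies close to the SVZ libraries for Six3 and Six3os1, and the SVZ libraries spread widely for Col18a1 and Aldh1a3.

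On the hippocampal side the largest differences by the same rule were those of Agt, Apoe and Gpr17. Agt, the angiotensinogen gene, which astrocytes make in the brain, was 0.956, 1.07 and 2.12 RPKM in SVZ knockout and 1.84, 2.11 and 1.64 in SVZ wild-type libraries, against 16.9, 15.1 and 23.5 in hippocampal knockout and 112, 56.6 and 17.2 in hippocampal wild-type libraries. The Agt difference was −3.57 ± 0.37 (adjusted p = 4e-05). Apoe, the main lipid carrier protein gene of brain glia, was 167, 26.4 and 198 RPKM in SVZ knockout and 325, 210 and 124 in SVZ wild-type libraries. In the hippocampus Apoe was 1364, 1206 and 1170 RPKM in knockout and 3575, 1294 and 1335 in wild-type libraries. SVZ knockout replicate 2 was the lowest library for Apoe and hippocampal wild-type replicate 1 the highest. The Apoe difference was −3.42 ± 0.46 (adjusted p = 0.000151), −2.99 without the former and −3.24 without the latter. Abca1, the transporter that loads cholesterol onto apolipoprotein, was 3.49 to 6.19 RPKM in SVZ and 21.6 to 77.7 in hippocampal spheres (−2.50 ± 0.21). In the second hippocampal round all 3 were high as well, with 22.1 to 425 RPKM for Agt, 1664 to 15285 for Apoe and 38.1 to 311 for Abca1.

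Sparcl1, the secreted glycoprotein hevin of astrocytes, had the most even difference of this group. It was 24.4 to 50.4 RPKM (median 37.8) in SVZ and 173 to 328 (median 277) in hippocampal spheres, a difference of −2.82 ± 0.15 (adjusted p = 8.8e-07). S100b, a calcium-binding protein gene of astrocytes and oligodendrocyte-lineage cells, was 4.46 to 10.5 RPKM in SVZ and 29.6 to 65.5 in hippocampal spheres (−2.52 ± 0.22). The zinc transporter gene Slc39a12 (−2.70), the gap junction gene Gjd2 (−2.71), the potassium channel gene Kcnn2 (−2.71), the long non-coding RNA Miat (−2.64) and the transmembrane protein gene Tmem132b (−2.59) were also lower in SVZ spheres. Each was without overlap, which the naming rule requires. Gpr17, a receptor of oligodendrocyte precursors about to differentiate, was 45.7, 9.92 and 48.7 RPKM in SVZ knockout, 69.9, 19.8 and 7.42 in SVZ wild-type, 193, 362 and 111 in hippocampal knockout and 291, 177 and 348 in hippocampal wild-type libraries. Its difference was −3.13 ± 0.53 (adjusted p = 0.000623). Gpr17 lies inside Lims2 on the opposite strand. Lims2 differed by −2.62 ± 0.42, and no label states whether the counting used strand, so the reads of this pair cannot be told apart.

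Genes that mark where in the forebrain a cell comes from were compared next. The lists were chosen with earlier results of these data known, so they are not an independent check of the region labels. Of 26 listed ventral forebrain and SVZ genes, 11 were kept, with a median of 0.30. Among the 11, 1 was higher in hippocampal spheres (9.1%, against 25% of all genes) and 5 in SVZ spheres (45.5%, against 23.6%). Beside Six3, the 5 were Otx2, Dlx2, Pbx3 and Meis2. Otx2, a homeobox gene of anterior brain and choroid plexus, was 1.49, 0.621 and 1.25 RPKM in SVZ knockout and 0.663, 1.79 and 2.54 in SVZ wild-type libraries and 0 in all 6 hippocampal libraries (1.20 ± 0.18, adjusted p = 0.000221). The interneuron homeobox gene Dlx2 was 1.10 to 1.87 RPKM in SVZ spheres and 0.086 to 0.912 in hippocampal spheres (0.94 ± 0.14), the highest hippocampal value again being knockout replicate 1. Pbx3, a homeobox cofactor, was 19.5 to 26.7 RPKM in SVZ and 10.0 to 14.4 in hippocampal spheres (0.88 ± 0.09). Meis2 differed little and its regions overlapped (0.27 ± 0.09, adjusted p = 0.0289). The retinoic acid receptor gene Rarb was lower in SVZ spheres (−0.65 ± 0.15). The ventral genes Gsx2 (0.49), Gsx1 (0.30), Nkx6-2 (0.21) and Tshz1 (−0.04) did not pass the test.

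The dorsal list did not mirror this. Of 27 dorsal pallium and hippocampal genes, 11 were kept, 2 were higher in hippocampal spheres and 2 in SVZ spheres, with a median of −0.18. Both shares were 18.2%, against 25% hippocampus-high and 23.6% SVZ-high over all genes. The nuclear receptor genes Nr2f2 (−1.43 ± 0.33) and Nr2f1 (−0.66 ± 0.13) were higher in hippocampal spheres. Nr2f2 was 0.785 to 3.69 RPKM in SVZ and 3.04 to 20.9 in hippocampal spheres, overlapping, and it did not pass within the wild-type libraries alone (−1.25, adjusted p = 0.126 in limma). Lhx2, the selector of cortex over hem, was higher in SVZ spheres, with 30.4 to 44.5 against 18.5 to 29.2 RPKM (0.68 ± 0.10). Emx2 (0.20), Pax6 (−0.31), Zbtb20 (−0.25) and the granule neuron gene Prox1 (−0.06) did not pass. At 0 RPKM in all 12 libraries were 4 ventral and 7 dorsal genes. Of 29 genes of diencephalon, midbrain, hindbrain and spinal cord, 3 were kept, with Barhl2 higher in SVZ spheres and Irx1 higher in hippocampal spheres (−0.47 ± 0.17), and 12 were at 0 throughout.

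**Figure D3:**
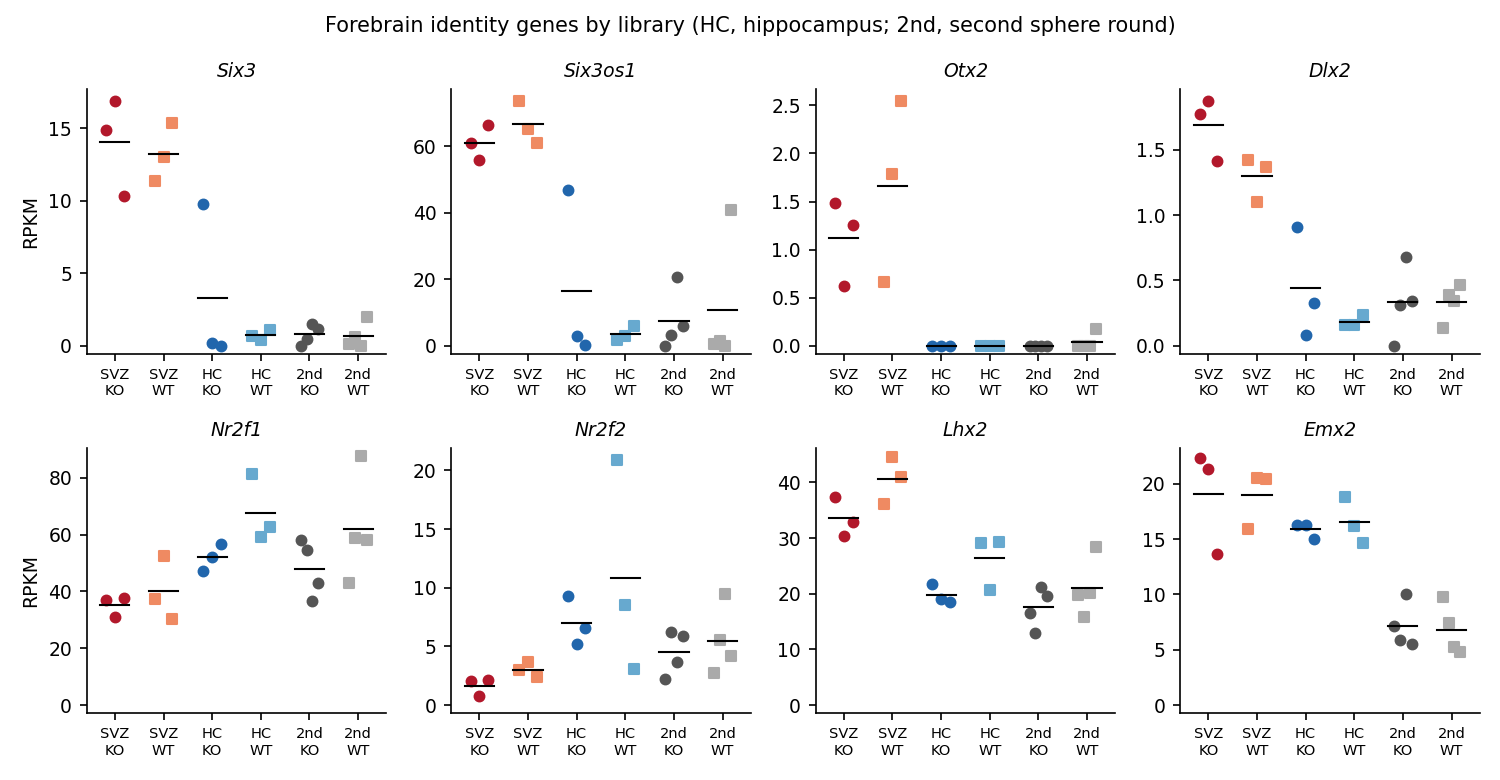
RPKM of 8 forebrain identity genes per library, with a bar at each group's mean; the grey points are second-round hippocampal libraries, which are outside the comparison. Otx2 is at 0 in every first-round hippocampal library, and hippocampal knockout replicate 1 is the high point of its group for Six3, Six3os1 and Dlx2.

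The cell cycle genes were all higher in SVZ spheres. All 41 listed genes passed the test with the same sign, against 23.6% of all genes. The median was 1.14, and 38 of the 41 had no overlap between regions, against 26.7% of all genes. The members with the largest differences belong to DNA synthesis. The thymidine kinase gene Tk1 was 95.1, 115 and 100 RPKM in SVZ knockout, 87.4, 99.9 and 124 in SVZ wild-type, 31.4, 23.7 and 45.2 in hippocampal knockout and 11.8, 27.2 and 25.4 in hippocampal wild-type libraries (1.97 ± 0.22, adjusted p = 4.4e-05). Ung, which removes uracil from DNA, was 16.3 to 25.5 RPKM in SVZ and 1.54 to 8.95 in hippocampal spheres (1.87 ± 0.24), and the replication licensing gene Cdt1 was 20.3 to 30.9 against 2.24 to 9.53 (1.66 ± 0.24). The smallest difference was that of Ccnd2 (0.33 ± 0.12), and the proliferation marker Mki67 was at 104 to 161 against 28.8 to 88.9 RPKM (0.96 ± 0.21); these 2 genes were singled out after their values were seen.

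The level of the cell cycle list, as the mean log2(RPKM + 1) of its members, was 6.36 to 6.60 in the SVZ libraries, 5.61, 5.33 and 5.79 in hippocampal knockouts and 4.39, 5.41 and 5.35 in hippocampal wild types. Hippocampal wild-type replicate 1 was the lowest, and 40 of 41 genes stayed called without it. Without the 2 SVZ libraries that go against their label 39 stayed called, and 38 in the knockout libraries and 38 in the wild-type libraries alone. In a fit that shares its error estimate with the second-round hippocampal libraries, 15 passed. Cell cycle inhibitors and p53 targets had both signs, with 5 of 20 higher in SVZ spheres and 2 in hippocampal spheres. The shares of 25% and 10% stand beside 23.6% and 25% of all genes. The SVZ-high count was 3 without hippocampal knockout replicate 1 or without the 2 SVZ libraries that go against their label, and the other count was 4 without SVZ knockout replicate 3. Among them the inhibitor gene Cdkn1a was higher in SVZ spheres (0.92 ± 0.18) and Cdkn1c, an imprinted inhibitor of quiescent cells, higher in hippocampal spheres (−0.9994 ± 0.20).

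Promoter windows were read for 33 of the 41 cell cycle genes, from 250 bases before to 50 after the start (RefSeq, GRCm38.p6). Among known motifs of cell cycle promoters are the CCAAT box, bound by NF-Y, and E2F sites; these 2 motifs were chosen with the results known. CCAAT, on either strand, was in 23 of the 33 windows (69.7%), against 39.1% of all 10153 windows of tested genes, 39.8% of those higher in SVZ spheres and 39% of those higher in hippocampal spheres. It was also in 11 of 21 windows (52.4%) of the quiescent stem cell and astrocyte list, whose genes ran the other way. The E2F letters TTCCCGCC, on either strand, were in 2 of the 33 windows (6.06%), against 4.23% of all windows, in 6.19% of windows of SVZ-high genes and in 3.07% of windows of hippocampus-high genes. Neither motif contains the other, though a CCAAT can begin in the last letters of a TTCCCGCC, and each was counted by itself. The windows of Mcm3, a subunit of the replicative helicase (1.48 ± 0.24), Cdk1, the mitotic kinase (1.11 ± 0.16), and Cdc20, an activator of the anaphase-promoting complex (1.20 ± 0.14), are shown as examples picked for their matches. They lie at chr1:20820263-20820562, chr10:69352863-69353162 and chr4:118437294-118437593, all on the minus strand, and are printed 5′ to 3′ with CCAAT or TTCCCGCC, or their reverse complement, in capitals.
Mcm3: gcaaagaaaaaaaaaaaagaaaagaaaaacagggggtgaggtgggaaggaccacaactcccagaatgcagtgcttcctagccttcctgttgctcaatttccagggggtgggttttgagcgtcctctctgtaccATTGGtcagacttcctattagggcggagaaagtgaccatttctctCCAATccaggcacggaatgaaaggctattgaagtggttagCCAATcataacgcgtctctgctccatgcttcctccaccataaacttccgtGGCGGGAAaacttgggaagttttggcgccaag
Cdk1: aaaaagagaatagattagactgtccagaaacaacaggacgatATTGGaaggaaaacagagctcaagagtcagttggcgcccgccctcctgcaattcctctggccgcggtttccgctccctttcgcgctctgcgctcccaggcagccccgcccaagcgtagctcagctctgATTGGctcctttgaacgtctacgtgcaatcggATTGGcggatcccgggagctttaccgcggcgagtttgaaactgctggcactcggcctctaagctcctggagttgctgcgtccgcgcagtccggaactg
Cdc20: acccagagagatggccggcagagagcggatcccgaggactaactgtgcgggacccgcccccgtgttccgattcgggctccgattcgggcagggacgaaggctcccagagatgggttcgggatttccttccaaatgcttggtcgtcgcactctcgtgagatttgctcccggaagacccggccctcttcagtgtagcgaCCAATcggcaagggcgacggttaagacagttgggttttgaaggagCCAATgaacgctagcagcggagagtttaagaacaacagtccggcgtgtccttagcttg
The Mcm3 window holds 4 matches, that of Cdk1 3 and that of Cdc20 2. A homeodomain core, TAATTA, was in 1.92% of SVZ-high and 2.41% of hippocampus-high windows, against 2.27% of all.

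**Figure D4:**
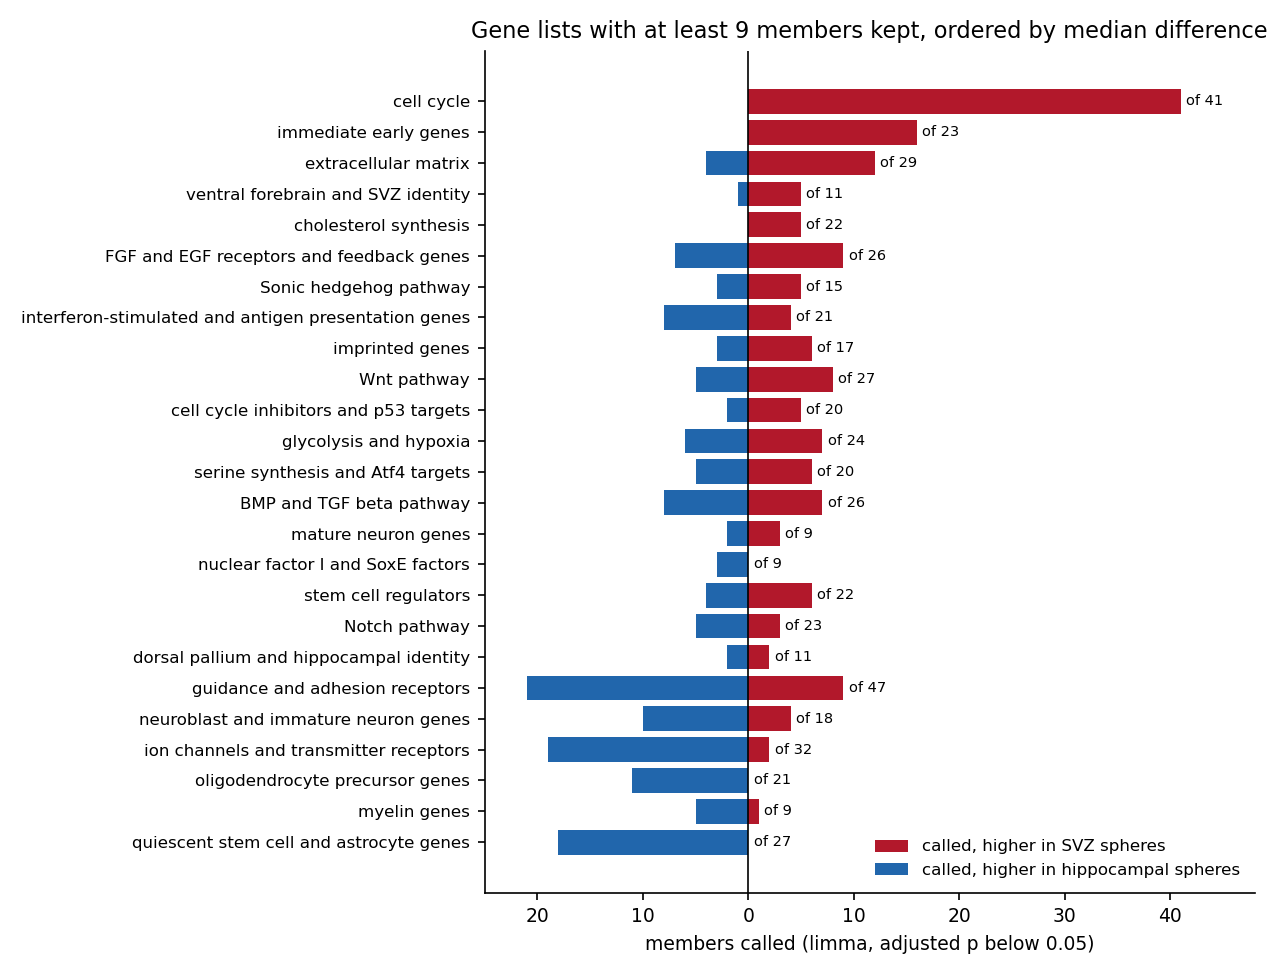
Bars give how many members of each list passed the limma test, to the right for genes higher in SVZ spheres and to the left for genes higher in hippocampal spheres, with the number of members tested beside them. Cell cycle genes all point to the right, and 18 of 27 quiescent stem cell and astrocyte genes point to the left.

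Immediate early genes, which growth factors and activity switch on within minutes, were also higher in SVZ spheres, with 16 of 23 called so. That is 69.6%, against 23.6% of all genes. None was higher in hippocampal spheres, and the median was 0.48. Arc, a gene of activated neurons and growth factor response, was 16.3, 14.7 and 10.6 RPKM in SVZ knockout, 10.7, 13.4 and 17.5 in SVZ wild-type, 5.57, 3.45 and 3.92 in hippocampal knockout and 0.328, 1.86 and 4.03 in hippocampal wild-type libraries (1.97 ± 0.30). The transcription factor genes Egr3 (1.84 ± 0.22) and Ier2 (1.13 ± 0.12) followed, both without overlap. Fewer passed within one genotype, 8 in knockout and 10 in wild-type libraries, and 11 without the 2 SVZ libraries that go against their label. Of 26 FGF and EGF receptor and feedback genes, 9 were higher in SVZ and 7 in hippocampal spheres. The shares of 34.6% and 26.9% stand beside 23.6% and 25% of all genes. The SVZ-high side was led by the EGF receptor ligand gene Areg (1.13), the ERK phosphatase gene Dusp4 (0.96) and the receptor feedback inhibitor gene Spry4 (0.91), and the other side by the receptor genes Erbb4 (−1.18) and Fgfr2 (−0.82) and the ligand gene Fgf1 (−0.95). The EGF receptor gene itself, Egfr, did not pass, with a median of 136 RPKM in SVZ and 135 in hippocampal spheres.

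Quiescent stem cell and astrocyte genes ran the other way. Of 27 tested, 18 were higher in hippocampal spheres (66.7%, against 25% of all genes) and none in SVZ spheres. The median was −0.84, and 12 of 27 were without overlap, against 26.7% of all genes. Beside Apoe, Sparcl1 and S100b, the members were less extreme: for example, the water channel gene Aqp4 was 6.99 to 53.7 RPKM in SVZ and 44.9 to 138 in hippocampal spheres (−1.54 ± 0.40), and the glutamate transporter gene Slc1a2 differed by −1.31. Gfap, the intermediate filament of astrocytes, was 0.204 to 6.42 RPKM in SVZ and 2.31 to 149 in hippocampal spheres (−1.90 ± 0.78) and did not pass (adjusted p = 0.0606); Aqp4, Slc1a2 and Gfap were picked after their values were seen. The mean level of the list was 5.17, 4.58 and 5.31 in SVZ knockout, 5.40, 5.23 and 5.16 in SVZ wild-type, 5.94, 5.93 and 5.88 in hippocampal knockout and 6.75, 6.13 and 5.95 in hippocampal wild-type libraries. SVZ knockout replicate 2 was the lowest and hippocampal wild-type replicate 1 the highest. Without the latter, 18 were higher in hippocampal and 1 in SVZ spheres. Without the 2 SVZ libraries that go against their label these counts were again 18 and 1, with a median of −0.67, and 12 passed within knockout and 14 within wild-type libraries.

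**Figure D5:**
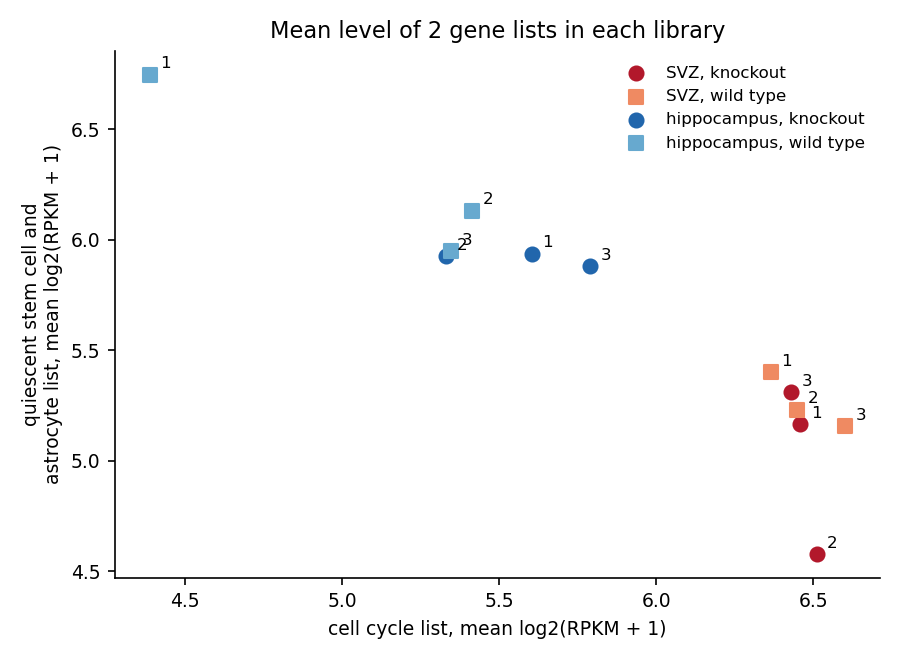
Each point is 1 library, with the mean log2(RPKM + 1) of the cell cycle list across and of the quiescent stem cell and astrocyte list upward, numbered by replicate. The regions do not overlap on either axis, and hippocampal wild-type replicate 1 has the lowest cell cycle (4.39) and highest astrocyte level (6.75).

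Oligodendrocyte precursor genes were in part higher in hippocampal spheres, 11 of 21 (52.4%, against 25% of all genes) and 0 in SVZ spheres. Their median was −0.70. Behind Gpr17 stood Tnr, a tenascin of perineuronal matrix made by oligodendrocyte precursors, at 6.84 to 22.1 RPKM in SVZ and 24.4 to 88.7 in hippocampal spheres (−1.84 ± 0.31). Enpp6, an enzyme of newly forming oligodendrocytes, was 0.120 to 0.520 against 0.618 to 8.93 RPKM (−1.68 ± 0.39). The lineage genes Olig2 (0.11), Pdgfra (−0.54) and Cspg4 (0.46), looked at after their values were seen, did not pass. Within the knockout libraries 5 precursor genes passed and within the wild-type libraries 7. Without the 2 SVZ libraries that go against their label 9 passed and the median was −0.46. Of 9 myelin genes 5 were higher in hippocampal spheres (55.6%, against 25% of all genes) and 1 in SVZ spheres (11.1%, against 23.6%). The count of 5 was 3 without those 2 libraries, 1 within knockout and 2 within wild-type libraries. The summed RPKM of that list was 40.2 to 57.5 in SVZ and 70.4 to 163 in hippocampal spheres.

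Neuronal genes divided. Of 18 neuroblast and immature neuron genes, 10 were higher in hippocampal spheres and 4 in SVZ spheres. The shares of 55.6% and 22.2% stand beside 25% and 23.6% of all genes. Elavl4, a neuronal RNA-binding protein gene, was 5.18, 8.10 and 6.12 RPKM in SVZ knockout, 4.74, 8.57 and 7.37 in SVZ wild-type, 13.0, 26.1 and 37.0 in hippocampal knockout and 35.1, 31.3 and 37.6 in hippocampal wild-type libraries (−1.96 ± 0.22, adjusted p = 4.8e-05). Gad1, the enzyme that makes the transmitter GABA, was also higher in hippocampal spheres (−1.60 ± 0.30), as was the synaptic adhesion gene Nrxn3 (−1.09 ± 0.16). The growth cone protein gene Gap43 (0.80 ± 0.16), the surface marker gene of neuroblasts Cd24a (0.67 ± 0.18) and the transcription factor gene Sox11 (0.63 ± 0.10) were higher in SVZ spheres. Of 9 mature neuron genes 3 were higher in SVZ and 2 in hippocampal spheres (33.3% and 22.2%, against 23.6% and 25% of all genes). Their median was −0.07. The surface glycoprotein gene Thy1 (−2.03 ± 0.19) is 1 of the 2 hippocampus-high genes and does not stand for the list.

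Receptors for transmitters and ion channels were mostly higher in hippocampal spheres, 19 of 32 against 2, with a median of −0.62. The shares were 59.4% and 6.2%, against 25% and 23.6% of all genes. The AMPA receptor subunit gene Gria4 was 1.54 to 3.46 RPKM (median 2.17) in SVZ and 8.05 to 23.6 (median 15.3) in hippocampal spheres (−2.26 ± 0.24, adjusted p = 3.7e-05), and Gria1 was 1.75 to 5.28 against 10.4 to 15.0 (−1.80 ± 0.19). The adenosine receptor gene Adora2b differed by −1.64 ± 0.18. The muscarinic receptor genes Chrm3 (0.85 ± 0.29) and Chrm1 (0.44 ± 0.12) were the 2 that were higher in SVZ spheres. Without hippocampal wild-type replicate 1, 22 channel and receptor genes were higher in hippocampal spheres. Within genotypes the counts were 15 for knockout and 13 for wild type.

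Guidance and adhesion receptors were split, with 21 of 47 higher in hippocampal spheres and 9 in SVZ spheres. Those are 44.7% and 19.1%, against 25% and 23.6% of all genes. The receptor genes Epha4 (−1.29 ± 0.14) and Unc5c (−1.18) and the semaphorin gene Sema5a (−1.17) were the most hippocampus-high, and Epha2 (1.19 ± 0.21), Unc5b (1.17 ± 0.16) and Sema3c (0.68) the most SVZ-high. Epha4 and Epha2, and Unc5c and Unc5b, stood on opposite sides. They were named as the largest in each direction, so these pairs do not describe their receptor families. Extracellular matrix genes leaned to SVZ spheres, 12 of 29 against 4 in hippocampal spheres (2 without SVZ knockout replicate 1 or 2 or hippocampal replicate 2 of either genotype). The shares of 41.4% and 13.8% stand beside 23.6% and 25% of all genes. After Col18a1 and Spp1 came Tnc, the tenascin of stem cell niches, at 349, 761 and 199 RPKM in SVZ knockout, 142, 248 and 374 in SVZ wild-type, 59.2, 65.9 and 167 in hippocampal knockout and 36.6, 73.3 and 51.3 in hippocampal wild-type libraries (2.13 ± 0.36). Its highest hippocampal library exceeded the lowest SVZ library. The brain proteoglycan gene Bcan was 178 to 431 RPKM in SVZ and 589 to 705 in hippocampal spheres (−1.03 ± 0.16). The tenascin genes Tnc and Tnr, each named for a large difference in its list, differed in opposite directions.

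Stem cell regulators showed both signs, 6 of 22 higher in SVZ and 4 in hippocampal spheres (7 without hippocampal wild-type replicate 3). The shares of 27.3% and 18.2% stand beside 23.6% and 25% of all genes. The chromatin protein gene Hmga2, known from fetal stem cells, was 1.96 to 13.6 against 0.667 to 3.02 RPKM (1.17 ± 0.30), and the intermediate filament gene of neural progenitors Nes was 453 to 563 against 273 to 397 (0.57 ± 0.08). Vcam1, an adhesion molecule of quiescent stem cells (−1.55 ± 0.31), and Fabp7, the brain lipid-binding protein gene of radial glia (−0.62 ± 0.13), were higher in hippocampal spheres. After quantile normalisation the Fabp7 difference was exactly 0, the value for a gene that holds the same rank in every library. That setting cannot show a difference for such a gene. After median centring the Fabp7 difference was −0.60. Sox2 was 74.9 to 98.4 RPKM in SVZ and 72.1 to 155 in hippocampal spheres and did not pass.

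The niche signalling pathways all had members on both sides, but so did all genes, with 23.6% SVZ-high and 25% hippocampus-high. The shares were 13% and 21.7% in the Notch list, 29.6% and 18.5% in the Wnt list and 33.3% and 20% in the Sonic hedgehog list. In the Notch list 3 of 23 genes were higher in SVZ and 5 in hippocampal spheres (8 without SVZ knockout replicate 3 or without hippocampal wild-type replicate 3). The receptor gene Notch1 (0.50 ± 0.11) and Lfng (0.55 ± 0.12), a glycosyltransferase that tunes the receptor, were SVZ-high, while the target gene Hes5 was 5.80 to 16.1 RPKM in SVZ and 22.2 to 53.5 in hippocampal spheres (−1.34 ± 0.27). In the Wnt list 8 of 27 were SVZ-high, led by the receptor gene Fzd10 (1.33), the transcription factor gene Tcf7 (1.19) and the co-receptor gene Lrp5 (1.09 ± 0.09). Another 5 were hippocampus-high, led by Rnf43, a ligase that removes Wnt receptors and is itself a Wnt target, at 0.798 to 1.27 RPKM in SVZ and 3.86 to 8.37 in hippocampal spheres (−1.71 ± 0.12, adjusted p = 5.3e-06). The hippocampus-high count of the Wnt list was 3 without any 1 of SVZ knockout replicates 1 and 2, hippocampal knockout replicates 2 and 3 and hippocampal wild-type replicates 2 and 3, and the SVZ-high count was 5 without SVZ wild-type replicate 3. In the Sonic hedgehog list 5 of 15 were SVZ-high and 3 hippocampus-high. The co-receptor genes were on opposite sides, Cdon at 1.70 ± 0.33 and Boc at −0.74 ± 0.15. The transcription factor gene Gli3, mainly a repressor of the pathway, was 3.80 to 6.26 RPKM in SVZ and 1.11 to 2.35 in hippocampal spheres (1.13 ± 0.15), and Ptch1, receptor and target, was 33.4 to 41.1 against 53.3 to 69.1 (−0.70 ± 0.07).

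In the BMP and TGF beta list 7 of 26 were SVZ-high and 8 hippocampus-high (26.9% and 30.8%, against 23.6% and 25% of all genes). The ligand gene Tgfb3 (0.90), the receptor gene Tgfbr2 (0.77) and the target Id1 (0.86 ± 0.17) were higher in SVZ spheres. The ligand genes Bmp4, at 0 to 0.449 RPKM in SVZ and 0.400 to 4.03 in hippocampal spheres (−1.37 ± 0.25), and Tgfb2 (−0.62), and the inhibitor gene Id4 (−1.05 ± 0.23), were higher in hippocampal spheres. Nuclear factor I and SoxE genes were 0 of 9 SVZ-high and 3 hippocampus-high (0% and 33.3%, against 23.6% and 25% of all genes).

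Metabolic lists were counted as well. Over all genes 23.6% were SVZ-high and 25% hippocampus-high. The shares were 22.7% and 0% for cholesterol synthesis, 29.2% and 25% for glycolysis and hypoxia, and 30% and 25% for serine synthesis. They were 19% and 38.1% for interferon-stimulated genes and 35.3% and 17.6% for imprinted genes. Cholesterol synthesis had 5 of 22 genes SVZ-high and none hippocampus-high, with 21 of 22 differences above 0, against 6396 of 13354 over all genes. Without SVZ knockout replicate 2 its SVZ-high count was 9, and without both SVZ libraries that go against their label 10. Glycolysis and hypoxia genes were 7 SVZ-high, among them the peptide hormone gene Adm (1.25), Hk2 (1.02) and Ldha (0.85 ± 0.12), and 6 hippocampus-high, among them the neuronal enolase gene Eno2 (−0.89), of 24. Serine synthesis and Atf4 targets were 6 and 5 of 20 (5 and 3 without the 2 SVZ libraries that go against their label), with the mitochondrial folate enzyme gene Mthfd2 SVZ-high (1.05) and the cystine transporter gene Slc7a11 at 2.62 to 6.64 against 10.1 to 22.3 RPKM (−1.61 ± 0.21). Interferon-stimulated genes were 4 and 8 of 21, but the count of 8 was 3 without the 2 SVZ libraries that go against their label. It was 4 or 5 without any 1 of SVZ knockout replicate 2, SVZ wild-type replicates 2 and 3, hippocampal knockout replicate 3 and hippocampal wild-type replicates 1 and 2. The count of 4 was 2 without SVZ wild-type replicate 3 or hippocampal wild-type replicate 3. Of 17 imprinted genes 6 were SVZ-high and 3 hippocampus-high; Ndn, a growth-suppressing imprinted gene, was 62.1 to 90.5 RPKM in SVZ and 15.2 to 43.5 in hippocampal spheres (1.46 ± 0.16), and Mest was 460 to 592 against 141 to 392 (1.05 ± 0.17).

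Of the markers of other cell types that the cultures could hold, most in each list below were not kept. Of 20 microglia and macrophage genes, 3 were kept and 8 were at 0 in all 12 libraries, Cx3cr1 and Aif1 among them. The list's summed RPKM was 19.9 to 23.9 in SVZ and 29.5 to 42.2 in hippocampal spheres. Of 19 endothelial genes 3 were kept and 3 were at 0 throughout, Cldn5 among them, and the sum was 5.79 to 9.31 in SVZ and 3.26 to 3.995 in hippocampal spheres. The VEGF receptor gene Flt1 was the only one that passed, at 2.45 to 6.70 against 0.116 to 1.08 RPKM (1.76 ± 0.20), while Pecam1 was at or under 0.149 in every library. Of 18 pericyte and fibroblast genes, 5 were kept and none passed, but the list's summed RPKM was 89.2 to 174 in SVZ and 85.2 to 159 in hippocampal spheres. Of 22 ependymal and cilia genes 8 were kept, with 2 SVZ-high and 1 hippocampus-high (25% and 12.5%, against 23.6% and 25% of all genes). That list's sum was 37.3 to 46.4 in SVZ and 34.9 to 64.3 in hippocampal spheres. Of 14 choroid plexus genes 2 were kept, Otx2 (SVZ-high) and Enpp2 (−1.48 ± 0.33), while Ttr was 0 in the hippocampal libraries and at most 3.20 in an SVZ library. The sum of the choroid plexus list was 11.8 to 61.3 in SVZ and 63.8 to 146 in hippocampal spheres. In the hippocampal libraries, where Otx2 and Ttr were at 0, Enpp2 made up most of it. The sum therefore follows 1 gene rather than the list. What part these cells have in the differences above was not tested.

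The last comparison asked whether the region difference itself differed between genotypes. In wild type that difference sets male SVZ against female hippocampal donors, while all knockout donors are male. Genotype and donor sex therefore cannot be told apart in it. In the test of the region difference in knockout minus that in wild type, 1 of 13354 genes passed in limma (0.00749%), and 704 had an unadjusted p under 0.05. That gene was Rnu7, the small nuclear RNA for histone mRNA ends, at 2.48, 3.77 and 3.81 RPKM in SVZ knockout libraries and 0 in the other 9. With a gene of 62 bases these values amount to 2, 3 and 3 reads. Rnu7 passed the minimum RPKM only through the 3 libraries in which it is high, so its test carries no weight and its p is not given. The next smallest p among protein-coding genes was that of the integrin gene Itga6, with a region difference of −0.21 in knockout and 1.05 in wild-type libraries, which did not pass (adjusted p = 0.275). For the genotype term of the same fit, 0 genes passed in limma and 816 had an unadjusted p under 0.05.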

How the data were processed

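RNA was sequenced from adult mouse neurospheres after ribosomal RNA depletion, stranded library preparation and exon capture, in paired reads, per the labels' protocols. The authors deposited RPKM values per gene, written with decimal commas and with empty cells read as 0, in a table of 36724 genes and a filtered one of 19709 with identical values. The submitters' processing notes name GRCm38, mm10, FastQC 0.11.5 and DESeq2; the aligner, the counter, the gene lengths and the use of strand are not stated there or in the labels. RPKM are shares of a library, so a change in some genes moves others. Values were tested as log2(RPKM + 1) with limma 3.58.1 (R 4.3.3), with region and genotype as terms and 9 residual degrees of freedom, trend and robust variance, Benjamini-Hochberg adjustment over 13354 genes and a threshold of 0.05. The SE is that of limma's moderated fit. On simulated data over 13354 genes, the fit recovered 55.2% of changes of 0.5, 95.5% of 1 and 100% of 2 on the log2 scale. Of the simulated calls, 7.73% were unchanged genes. Only 67, 67 and 66 genes were changed, all with a mean log2(RPKM + 1) above 2, with normal noise independent between genes. The data had 6500 calls, so these rates need not hold for them. Depth was estimated from the RPKM steps of genes spanning 70 to 300 bases. Gene names and positions come from RefSeq (34197 IDs matched). The members and lists were chosen with earlier results of these data known. Named genes are up to 12 per direction with the largest difference, no overlap of regions and a mean of at least 5 RPKM in the higher region, the forebrain identity lists, up to 3 called genes per direction of every other list, the 5 smallest p of the interaction, and Egfl7; predicted genes, clones, microRNA, snoRNA and pseudogenes are counted but not named, and a few genes that the rule names are not reported here. Other genes in the text were chosen after their values were seen. Alternatives changed the pseudocount, minimum, normalisation, design and libraries.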

Additional observations from a re-analysis of the deposited data

Results flagged for a closer look

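In 14 of 64 sets of 6 libraries looked at, 1 library lay apart from the other 5 of its region, by a gap of more than 0.625 of the whole range. For 6 normal values of 1 group, chance gives such a gap in about 1 in 20 sets. Most sets here hold untransformed RPKM and all mix the genotypes, so that rate need not hold. Sets that share a library are not independent. Hippocampal wild-type replicate 1 accounted for 7. Its Apoe was 3575 RPKM against 1170 to 1364, its Abca1 77.65 against 21.62 to 29.39 and its Barhl2 0.88 against 0 to 0.223. Its mean log2 level was 4.389 against 5.332 to 5.791 for the cell cycle list, 6.747 against 5.879 to 6.132 for the quiescent stem cell and astrocyte list, and 4.14 against 4.398 to 4.527 for ion channels and transmitter receptors. On the second principal component it lay at 37.13 against −19.97 to −4.954.

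SVZ knockout replicate 2 accounted for 4, with Col18a1 at 60.98 RPKM against 2.899 to 22.91, Rgs16 at 37.78 against 5.566 to 17.24, Aldh1a3 at 41.39 against 1.628 to 14.3 and a mean log2 level of the quiescent stem cell and astrocyte list of 4.579 against 5.156 to 5.402. It is one of the 2 SVZ libraries whose Egfl7 goes against the label. Hippocampal knockout replicate 1 had Six3os1 at 46.73 RPKM against 0.138 to 5.89 and Six3 at 9.757 against 0 to 1.08, and hippocampal knockout replicate 3 had Aldh1a3 at 1.276 against 0.301 to 0.613.

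For Rnu7 the region difference was larger in knockout than in wild-type libraries by 2.106 on the log2 scale, from 2 to 3 reads per SVZ knockout library. The gene passed the minimum RPKM only through those 3 libraries, so the test of this difference is void.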

How the results depend on the processing

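Over 27 alternatives, the number of genes called ran from 3341 to 6758. It was 3341 (1709 SVZ-high, 1632 hippocampus-high) with knockout libraries only and 3464 (1775 and 1689) with wild-type libraries only, fits with 6 libraries each, 5161 without the 2 SVZ libraries that go against their genotype label and 5639 to 6285 without 1 library in turn. The library numbers do not pair the regions, whose mice are numbered differently, and deviations of same-numbered libraries correlated from −0.0964 to 0.0604; with the replicate number as a block 5923 genes passed. The interaction gave 3 genes with no minimum RPKM, 0 without the 2 SVZ libraries (limma, 570 with an unadjusted p under 0.05) and 0 to 2 without 1 library in turn. In a fit of all 20 libraries 15 cell cycle genes passed. With knockout libraries only, 8 immediate early and 5 oligodendrocyte precursor genes passed, and with wild-type libraries only 10 immediate early, 7 oligodendrocyte precursor, 13 guidance and 28 ribosomal protein genes. Of 148 called named genes 75 stayed called the same way under every alternative; 45 were lost with knockout and 42 with wild-type libraries only. The sign turned for 5 named genes. With knockout libraries only it did so for Gsx1 (−0.20), Prox1 (0.19), Tshz1 (0.00066), Nfix (0.083) and Itga6 (−0.21), and with library weights for Tshz1 (0.026) and Nfix (0.069). Nfix was 0.0041 after median centring and 0.062 without the 2 SVZ libraries. Without 1 library in turn, Tshz1 ran from −0.082 to 0.024, Prox1 from −0.17 to 0.0053 and Nfix from −0.0647 to 0.090, each highest without hippocampal wild-type replicate 1. None of these was called. The causes were not tested. Depth limits genes near 0.129 RPKM, such as Otx2 in hippocampal spheres.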

Other observations

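Gene families outside the lists were counted after their values were seen. Over all genes 23.6% were SVZ-high and 25% hippocampus-high. Of 21 clustered beta protocadherin genes on chromosome 18, adhesion molecules chosen differently by single neurons, 20 were higher in hippocampal spheres and none in SVZ spheres, with a median of −1.05. Their summed RPKM was 54.5 to 90.9 in SVZ, 157 to 221 in first-round hippocampal and 115.5 to 223.6 in second-round hippocampal libraries. The genes are related copies in 1 cluster, and how reads shared between copies were counted is not stated. The neighbouring gamma cluster had 1 of 22 genes SVZ-high and 5 hippocampus-high. Of 72 cytosolic ribosomal protein genes 59 were higher in SVZ spheres and none in hippocampal spheres, with a median of 0.45, and 28 passed within the wild-type libraries alone. Of 7 annexin genes 4 were SVZ-high and none hippocampus-high.

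The kinds of gene differed in their share of calls. Of 810 long non-coding RNA genes 8.0% were higher in SVZ and 34.7% in hippocampal spheres, against 25.3% and 24.8% of 11803 protein-coding genes. Among the 2361 protein-coding genes with the shortest genomic span, up to 8.366 kb, 30.0% were SVZ-high and 17.5% hippocampus-high, and in the 2361 with the longest span 16.8% and 33.8%. By mean level, the lowest 2671 of all genes had 12.2% SVZ-high and 27.1% hippocampus-high genes and the highest 2671 had 34.4% and 19.4%. Kind, span and level are related to each other, and their separate parts were not tested.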
